A study of Mus musculus with 12 samples.

Results

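Interferons reach the nucleus through a short relay. Type I interferons bind a receptor made of the chains IFNAR1 and IFNAR2, which carry the kinases TYK2 and JAK1. Interferon gamma binds IFNGR1 and IFNGR2, which carry JAK1 and JAK2. The kinases phosphorylate STAT factors. STAT2 acts with IRF9 in the complex ISGF3, which binds interferon-stimulated response elements, STAT dimers bind gamma-activated sites, and STAT3 mainly serves cytokines of the interleukin 6 family. In tumour cells the relay controls antigen presentation and checkpoint ligands, and loss of its parts is a known route of resistance to immunotherapy.

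The data described here are the transcript levels of 9 genes of this relay: the receptor chains Ifnar1, Ifnar2, Ifngr1 and Ifngr2, the kinases Jak1, Jak2 and Tyk2, and the factors Stat2 and Stat3. They were chosen by name, as parts of 1 pathway and with earlier results of these data known, out of 17718 genes in the deposited table. All 9 passed the filter on low counts, which left 13013 genes. The cells were CT26, a line grown from a colorectal carcinoma of a BALB/c mouse, kept in RPMI-1640 medium with serum and with no interferon treatment recorded. Wild-type cells (genotype WT, treatment None) gave 3 RNA-seq libraries and Mll3 knock-out cells (genotype Mll3KO) gave 3. Mll3 is an older name of Kmt2c, which encodes a histone H3 lysine methyltransferase of enhancers. The 3 knock-out columns are headed sg1, sg2 and sg3, and the labels do not say whether these are guides, clones, pools or replicates.

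Libraries held 9559658 to 13406013 counts, and all 6 carry 1 batch date. Kmt2c, the targeted gene, stood at 24.9 to 26.2 CPM (counts relative to the TMM-scaled library size) in wild-type and 11.2 to 15.96 CPM in knock-out libraries (log2 fold change -0.87, SE 0.129). Reads summed over the gene cannot show the edit. Of the 16 immune cell markers looked for, 9 were among the genes analysed here, summing to 35.5 to 40.4 CPM in wild-type and 44.8 to 52.8 CPM in knock-out libraries. The pan-leukocyte gene Ptprc had 1 count in each wild-type library and 2 to 4 in the knock-out libraries, the dendritic cell gene Itgax had 0 and 14 to 22, and Cd3e and Cd8a were not analysed here. Of the macrophage genes, Lyz2 rose from 0.553 ± 0.307 to 8.80 ± 0.535 CPM (SD, n = 3 each) and Csf1r fell from 15.2 ± 1.02 to 6.72 ± 1.55 CPM. Cd14 rose from 17.1 ± 1.36 to 25.1 ± 1.64 CPM, and Cd68, at 4.72 ± 0.859 and 4.91 ± 0.155 CPM, was not called. Of the 5 immune markers tested 3 were called higher and 1 lower, beside 33.1% and 33.2% of all genes tested. Lyz2 and Itgax passed the filter on low counts only through the knock-out libraries, so a call of either could only be higher. The summed level of 9 fibroblast and endothelial markers out of 11 was 1011 to 1027 and 1327 to 1367 CPM, and that of 5 colon epithelial markers out of 11 was 54.4 to 56.7 and 170.5 to 182 CPM. Of 7 tested fibroblast and endothelial markers 6 were called higher, as were all 4 tested epithelial markers, beside 33.1% of all genes tested. Krt7, Krt8, Des and Pecam1 were among them and passed the filter on low counts through the knock-out libraries. Epcam and Cdh1 were not analysed here, while the keratin genes Krt18 and Krt20 were present in all 6 libraries, with log2 fold changes of 1.51 and 1.79. In bulk RNA, fewer cells of a type and less RNA per cell cannot be told apart, and the part of these markers in the results was not tested.

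The promoters of the 9 genes were matched by symbol in the RefSeq table (build GRCm38.p6, the assembly of mm10), which gives 300 bases from 250 before to 50 after a start, and all 9 were found. They are shown for Stat2, the member with the greatest fall, and for Ifnar2 and Ifnar1, the paired chains of the type I receptor. Among the 9 promoters, only that of Stat2 held the letters GAAANNGAAA of an interferon-stimulated response element. Only those of Ifnar1 and Ifnar2 held the letters TTCNNNGAA of a gamma-activated site. Capitals mark these matches. The Stat2 match lies at -222 to -213 relative to the start and on the opposite strand, so its capitals read as the reverse complement. The Ifnar2 match lies at -214 to -206, and that of Ifnar1 spans the start used by the sequence table. For Ifnar1 this start, at 91485215, lies 183 bases inside the gene as positioned in the same build, while for Ifnar2 and Stat2 both starts agree.
Stat2, promoter at chr10:128270248-128270547, plus strand: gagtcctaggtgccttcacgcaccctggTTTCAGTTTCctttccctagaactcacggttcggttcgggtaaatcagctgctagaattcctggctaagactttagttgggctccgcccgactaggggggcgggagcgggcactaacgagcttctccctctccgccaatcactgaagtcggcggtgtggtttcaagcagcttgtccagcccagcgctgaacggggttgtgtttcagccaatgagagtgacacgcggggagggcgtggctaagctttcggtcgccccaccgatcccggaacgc
Ifnar2, promoter at chr16:91372533-91372832, plus strand: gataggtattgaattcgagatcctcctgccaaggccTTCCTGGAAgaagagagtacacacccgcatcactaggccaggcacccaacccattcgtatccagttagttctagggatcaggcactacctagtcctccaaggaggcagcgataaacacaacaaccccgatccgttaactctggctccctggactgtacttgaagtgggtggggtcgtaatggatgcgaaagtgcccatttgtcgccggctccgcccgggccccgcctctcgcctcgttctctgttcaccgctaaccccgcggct
Ifnar1, promoter at chr16:91484965-91485264, plus strand: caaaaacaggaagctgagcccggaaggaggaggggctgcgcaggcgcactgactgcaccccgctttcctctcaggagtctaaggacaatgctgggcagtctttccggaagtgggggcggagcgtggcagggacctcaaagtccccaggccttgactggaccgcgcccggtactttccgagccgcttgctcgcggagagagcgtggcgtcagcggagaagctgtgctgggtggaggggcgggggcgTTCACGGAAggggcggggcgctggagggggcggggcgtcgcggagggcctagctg

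Both strands were searched in all 32851 promoters of the table. GAAANNGAAA was found in 3.44% of them and TTCNNNGAA in 8.30%. The wider-spaced letters TTCNNNNGAA were found in 6.95% of all promoters and in those of Stat2 and Ifngr2, and the Stat2 match did not overlap its response element. A GC box, GGGCGG, was found in 35.7% of all promoters and in all 9 members. The promoters of the 9 genes had a GC content of 57.0% to 81.0%, against a median of 52.7% over all promoters, and 14 to 44 CpG dinucleotides against a median of 7. The quartiles over all promoters were 45.7% and 61.7% GC, and 3 and 20 CpG, so the members with the lowest values lay between them. All promoters of the table were counted, whereas the 9 genes had passed the filter on low counts. These are matches of letters, not measured binding.

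The relay did not move one way. Stat2 and Jak2 were lower in the knock-out, Tyk2, Ifngr1 and Ifngr2 were higher, and Ifnar1, Ifnar2, Jak1 and Stat3 did not pass the threshold. The threshold was a Benjamini-Hochberg adjusted p of 0.05 over all 13013 genes in edgeR's quasi-likelihood test. The 5 calls among 9 genes stand beside a background of 66.2% of all genes tested. The 3 higher calls stand beside 33.1% and the 2 lower calls beside 33.2%. The libraries of the 2 genotypes did not overlap for 7 of the 9 genes, against 68.7% of all genes. The median log2 fold change (knock-out over wild-type) of the 9 was -0.07, against 0.02 for all genes tested. With 5 of 9 called against 66.2%, the 9 genes were not called more often than other genes.

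**Figure D1:**
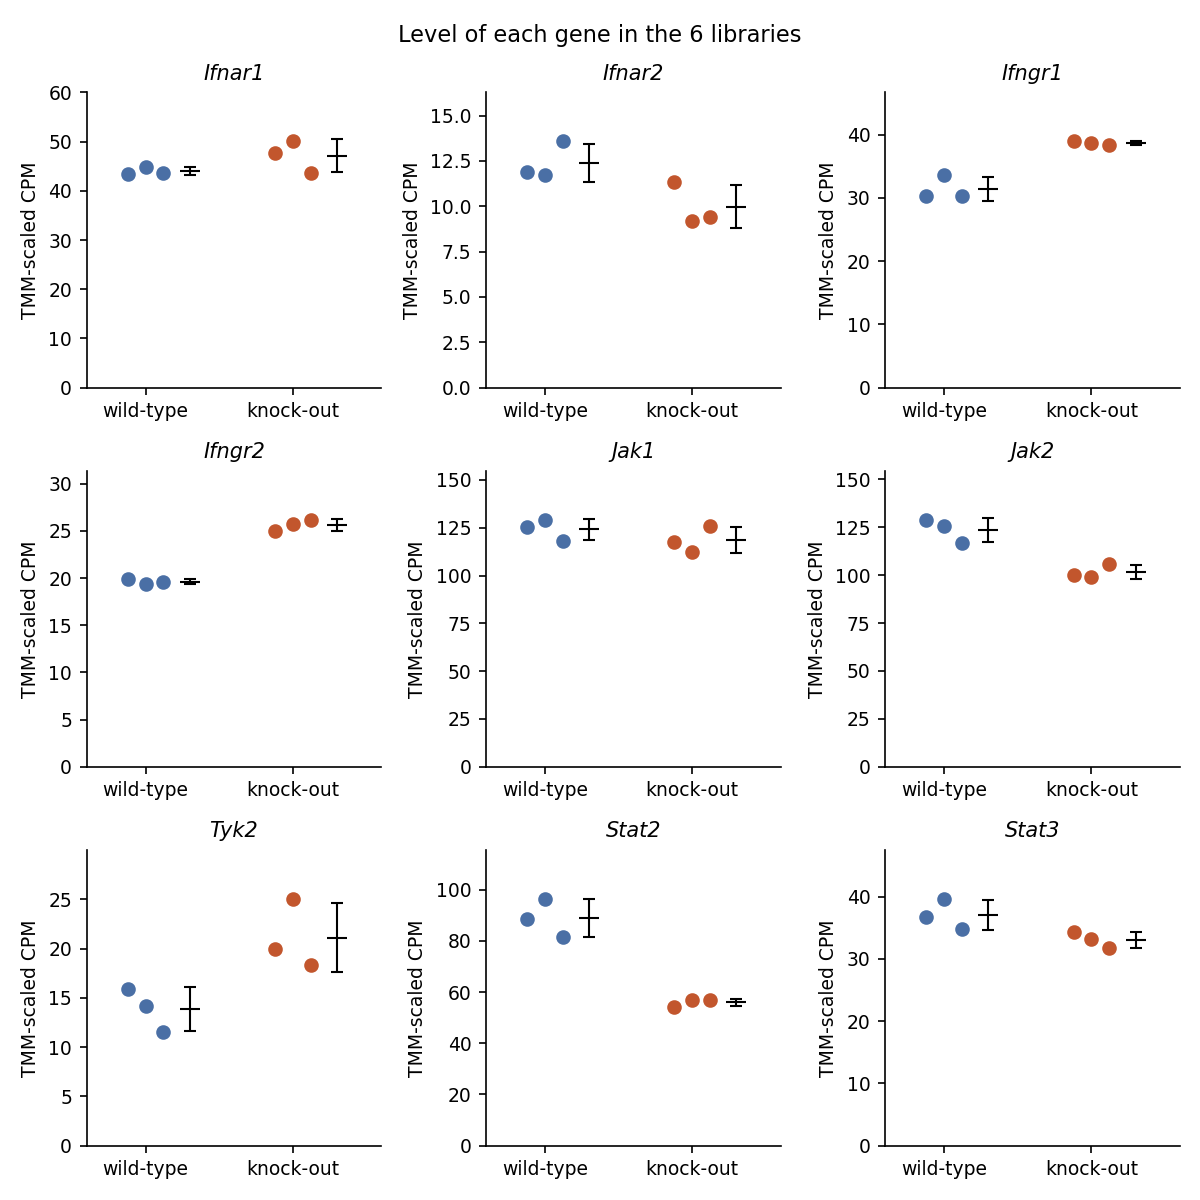
TMM-scaled CPM (vertical axes, each from 0) of the 9 genes in the 3 wild-type (blue) and 3 knock-out (orange) libraries, with the mean and SD of each group in black. Stat2 falls from 81.4 to 96.3 CPM to 54.2 to 56.9 CPM, while Ifnar1 and Jak1 overlap between the genotypes.

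Ifnar1 encodes the low-affinity chain of the type I receptor (ENSMUSG00000022967, chromosome 16, 91485032 to 91510523, mm10). It stood at 43.5, 44.9 and 43.6 CPM in wild-type libraries 1, 2 and 3 and at 47.8, 50.1 and 43.5 CPM in knock-out libraries sg1, sg2 and sg3. The groups overlapped, since sg3 lay within the wild-type range. The log2 fold change was 0.10 (SE 0.0811, 95% interval -0.06 to 0.26, n = 3 per group, edgeR adjusted p = 0.270). It passed the threshold under upper-quartile scaling (0.26, edgeR adjusted p = 0.00433) and under scaling by library size (0.22, adjusted p = 0.0129), 2 choices that raise the median of all genes by 0.16 and 0.12. Relative to that median its value was 0.09 under TMM and both of these.

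Ifnar2 encodes the high-affinity chain, which also occurs as a soluble isoform that a count per gene does not separate (ENSMUSG00000022971, chromosome 16, 91372783 to 91405589). It had the fewest reads of the 9 genes, 98 to 151 counts per library. Levels were 11.9, 11.7 and 13.6 CPM in wild-type and 11.4, 9.17 and 9.42 CPM in knock-out libraries. Each knock-out library lay below each wild-type library, with sg1 close to them. The log2 fold change of -0.31 (SE 0.162, 95% interval -0.64 to 0.01, n = 3 per group, edgeR adjusted p = 0.0849) missed the threshold. Without sg1 it was -0.42 and passed (adjusted p = 0.0429); under upper-quartile scaling it was -0.15 and by library size -0.19, and over all 15 alternatives the adjusted p ran from 0.0429 to 0.407.

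The ligand-binding chain of the interferon gamma receptor is encoded by Ifngr1 (ENSMUSG00000020009, chromosome 10, 19591949 to 19610229). Its level was 30.3, 33.6 and 30.3 CPM in wild-type and 39.0, 38.7 and 38.3 CPM in knock-out libraries. All 3 knock-out libraries were higher than all 3 wild-type libraries. Ifngr1 rose 1.23-fold (log2 fold change 0.30 with SE 0.0910, edgeR adjusted p = 0.00301), and had 0.46 under upper-quartile scaling. Its surroundings rose too: the median of chromosome 10 was 0.36 over 565 genes, and that of the 28 tested genes starting within 5 Mb was 0.52, with 17 higher and 6 lower. With the chromosome median removed the value was -0.055 (edgeR adjusted p = 0.616), and with the local median removed it was -0.22 (adjusted p = 0.0317), so the rise was smaller than the median of its region. Of its 4 nearest tested neighbours, Nhsl1 (0.69), Pex7 (0.67) and Map3k5 (0.61) were called higher, while Tnfaip3, which encodes the inhibitory protein A20, had -0.78 and was called lower. The call of Nhsl1 was lost without sg1 (0.53, edgeR adjusted p = 0.0660). With chromosome medians removed, the calls of Nhsl1 (0.33, adjusted p = 0.184) and Map3k5 (0.25, adjusted p = 0.0700) were lost as well.

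The signalling chain, Ifngr2 (ENSMUSG00000022965, chromosome 16, 91547059 to 91564007), was at 19.9, 19.4 and 19.6 CPM in wild-type and 24.96, 25.8 and 26.1 CPM in knock-out libraries. The groups were far apart for their spread, with means of 19.6 ± 0.252 and 25.6 ± 0.602 CPM (SD, n = 3 each). Ifngr2 rose 1.30-fold (log2 fold change 0.38, SE 0.113, edgeR adjusted p = 0.00240). Here the local median was -0.01 over 48 genes, and with it removed the value was 0.40.

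**Figure D2:**
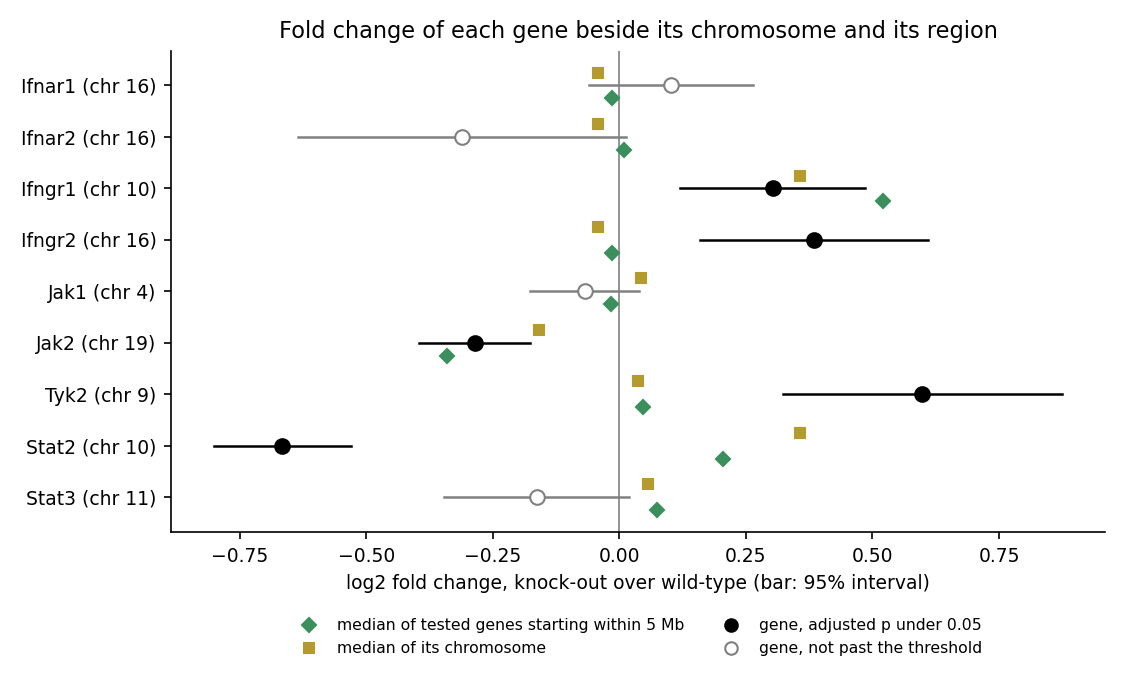
Log2 fold change (knock-out over wild-type) of each gene with its 95% interval, beside the median of its chromosome (squares) and of the tested genes starting within 5 Mb (diamonds). Filled points passed an adjusted p of 0.05; Stat2 lies at -0.67 where its region has a median of 0.20, and Ifngr1 at 0.30 where its region has 0.52.

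Ifnar2, Ifnar1 and Ifngr2 lie together on chromosome 16, within 191 kb, beside Il10rb, which encodes a chain shared by the receptors of interleukin 10 and interferon lambda. They did not move as a block. Among tested genes with a known position and a given name (not Gm, Rik or an Ensembl identifier alone), 10 lay in or near this cluster. Of these, 3 were higher, 2 were lower and 5 did not pass. Over all genes tested 33.1% were higher and 33.2% lower, so these counts are not read as a trait of the cluster. Next to Ifngr2, Tmem50b (log2 fold change 0.62, SE 0.174) and Gart, an enzyme of purine synthesis (0.57, SE 0.0502), rose as well. Further on, the splicing protein gene Son had -0.15 (SE 0.0441) and Cryzl1 -0.99 (SE 0.0533), both called lower. Son lost its call under scaling by library size (-0.029), and its value turned to 0.0070 under upper-quartile scaling. Il10rb had 0.02 (SE 0.155), Donson 0.03 (SE 0.0989) and Itsn1 -0.12 (SE 0.0720), none of them called. Son and Donson overlap, and whether counting used the strand is not given in the sources used here, so their counts are uncertain.

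**Figure D3:**
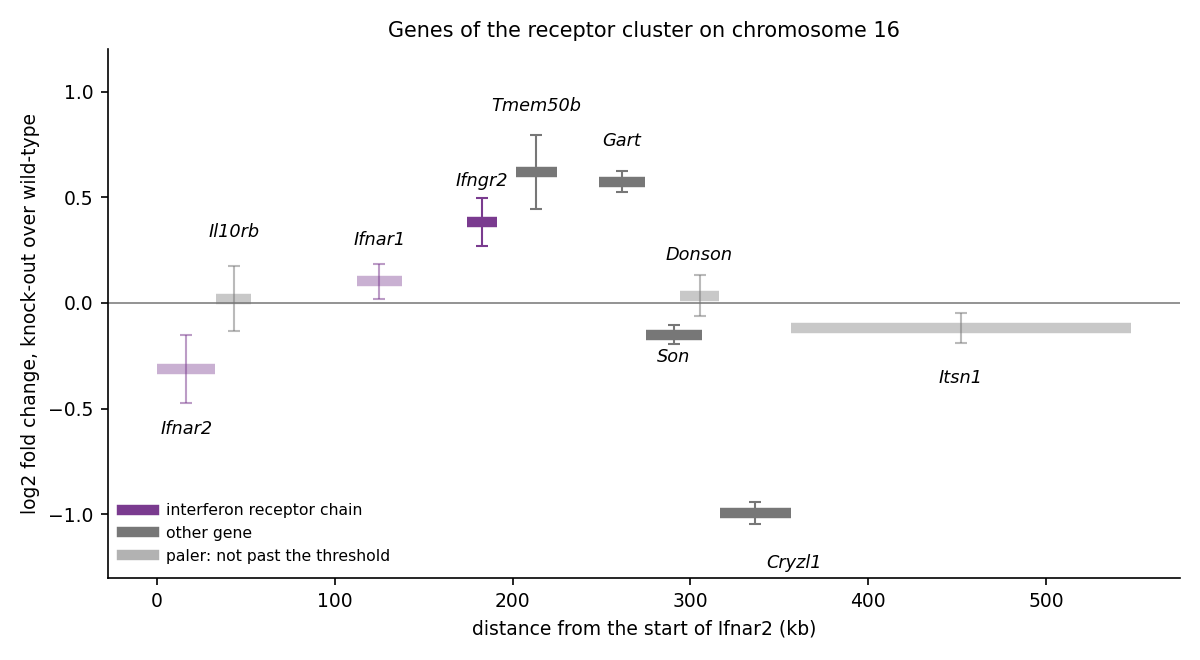
Log2 fold change with its SE (vertical axis) of the 10 tested genes with a given name in the chromosome 16 receptor cluster. Each is drawn over its length by distance from the start of Ifnar2 in kb. Values run from -0.99 at Cryzl1 to 0.62 at Tmem50b; among the receptor chains (purple) only Ifngr2 passed the threshold.

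Among the kinases, JAK1 serves both interferon receptors, and its gene (ENSMUSG00000028530, chromosome 4, 101151974 to 101265282) was at 125, 129 and 118 CPM in wild-type and 117, 112 and 126 CPM in knock-out libraries. The groups overlapped, at 1097 to 1593 counts per library. The log2 fold change of Jak1 was -0.07 (SE 0.0539, the smallest of the 9, 95% interval -0.18 to 0.04, n = 3 per group, edgeR adjusted p = 0.262). The direction turned under upper-quartile scaling (0.089) and under scaling by library size (0.053), neither past the threshold. Of its 4 nearest tested neighbours only Efcab7 was called (-0.43, SE 0.175), and that call was lost without sg1, without sg2, without wild-type replicate 1, under both of these scalings and in DESeq2, with an adjusted p of 0.0630 to 0.274.

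Jak2, whose kinase is carried by IFNGR2 and by several cytokine receptors (ENSMUSG00000024789, chromosome 19, 29251803 to 29313095), was at 129, 126 and 117 CPM in wild-type and at 100.04, 99.0 and 106 CPM in knock-out libraries. Each knock-out library lay below each wild-type library. Jak2 fell 1.22-fold (log2 fold change -0.29 with SE 0.0548, edgeR adjusted p = 8.37e-06). The fall was smaller under upper-quartile scaling (-0.13, edgeR adjusted p = 0.0298) and by library size (-0.16, adjusted p = 0.00585). The 36 tested genes starting within 5 Mb had a median of -0.34, with 20 lower and 6 higher, and with that median removed Jak2 had a value of 0.056 (adjusted p = 0.378). The chromosome median was -0.16, and without it the value of -0.13 still passed (adjusted p = 0.0377). Of its nearest tested neighbours, Rcl1 had -0.34 and Cd274, the gene of the checkpoint ligand PD-L1, had -1.45, both called lower; the other two were not called. Cd274 overlaps its neighbour Plgrkt in part, so its count carries the same uncertainty as those of Son and Donson.

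Tyk2 encodes the kinase carried by IFNAR1 (ENSMUSG00000032175, chromosome 9, 21104068 to 21131393). It was at 15.9, 14.2 and 11.5 CPM in wild-type and at 20.0, 24.99 and 18.4 CPM in knock-out libraries. The groups did not overlap, although both spread widely and sg2 stood above the other two. Tyk2 had the greatest rise of the 9 genes, 1.51-fold (log2 fold change 0.60 with SE 0.138, edgeR adjusted p = 0.000147), and 0.45 without sg2 (adjusted p = 0.0129). The median of its region was 0.05 over 62 genes, yet 3 of its 4 nearest tested neighbours rose: Raver1 by 0.52, Pde4a by 0.74 and Cdc37, a cochaperone of kinases, by 0.85 on the log2 scale.

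Stat2 encodes the STAT partner found in ISGF3 (ENSMUSG00000040033, chromosome 10, 128270498 to 128292853). Its level was 88.7, 96.3 and 81.4 CPM in wild-type and 54.2, 56.7 and 56.9 CPM in knock-out libraries. The gap between the groups exceeded the range within either. Stat2 fell 1.59-fold (log2 fold change -0.67 with SE 0.0677, edgeR adjusted p = 7.67e-13), the greatest change of the 9 in either direction; 29.8% of all tested genes had a log2 fold change at least as far from 0. The fall ran against its surroundings, where 34 of 72 tested genes within 5 Mb were higher and 12 lower, with a median of 0.20. With the local median removed the value was -0.87 and with the chromosome median removed it was -1.02. On one side lies the clock and replication gene Timeless, which rose by 1.42, and on the other Pan2, which rose by 0.59, and Il23a, a cytokine subunit, with -1.70. Il23a was at 1.41, 1.43 and 1.19 CPM in wild-type and 1.08, 0.173 and 0 CPM in knock-out libraries, so its value depends on single libraries: it was -3.74 without sg1 and -1.15 without sg3. Its call was lost without sg2 (edgeR adjusted p = 0.0935) or sg3 (adjusted p = 0.115).

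Stat3, the main factor of interleukin 6 family signals (ENSMUSG00000004040, chromosome 11, 100886806 to 100939594), was at 36.7, 39.6 and 34.8 CPM in wild-type and 34.3, 33.2 and 31.7 CPM in knock-out libraries. The groups did not overlap, but the highest knock-out library was close to the lowest wild-type one. The log2 fold change was -0.16 (SE 0.0914, 95% interval -0.35 to 0.02, n = 3 per group, edgeR adjusted p = 0.110). It passed without wild-type replicate 3 (-0.21, adjusted p = 0.0477) and with the chromosome median (-0.22, adjusted p = 0.0311) or the local median (-0.24, adjusted p = 0.0195) removed. Under upper-quartile scaling it was -0.0059, and under scaling by library size -0.042. Next to it, another STAT gene, Stat5a, rose from 1.87 to 4.18 CPM (log2 fold change 1.15), a call lost without sg2 (0.76, edgeR adjusted p = 0.0947). Stat5a and its near-identical neighbour Stat5b can share reads, so the level of Stat5a is uncertain. On the other side of Stat3, Cavin1, a caveola gene, rose by 0.14 and Atp6v0a1, a proton pump subunit gene, fell by 0.93 on the log2 scale.

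A ratio of counts of 2 genes within a library does not depend on how libraries are scaled. Such log2 ratios were taken for 5 pairs of partners; their size also reflects gene length, so only their change is read. For Stat2 over Stat3 the ratio was 1.27, 1.28 and 1.22 in wild-type and 0.66, 0.77 and 0.84 in knock-out libraries, a difference of -0.50. The ratio of Jak2 to Jak1 differed by -0.21 and that of Tyk2 to Jak1 by 0.67. For Ifnar2 over Ifnar1 it went from -1.87, -1.94 and -1.68 to -2.07, -2.45 and -2.21, a difference of -0.41. In these 4 pairs the groups did not overlap, and each had the smallest p that 3 against 3 libraries can give (two-sided exact permutation test, p = 0.1, adjusted p = 0.125 over 5 pairs), so none could pass 0.05. Ratios of other gene pairs were not taken. Single genes did not overlap for 68.7% of all genes tested, so such separation is common in these data. Between the gamma receptor chains the groups overlapped, with a difference of 0.08 for Ifngr2 over Ifngr1 (exact p = 0.3).

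**Figure D4:**
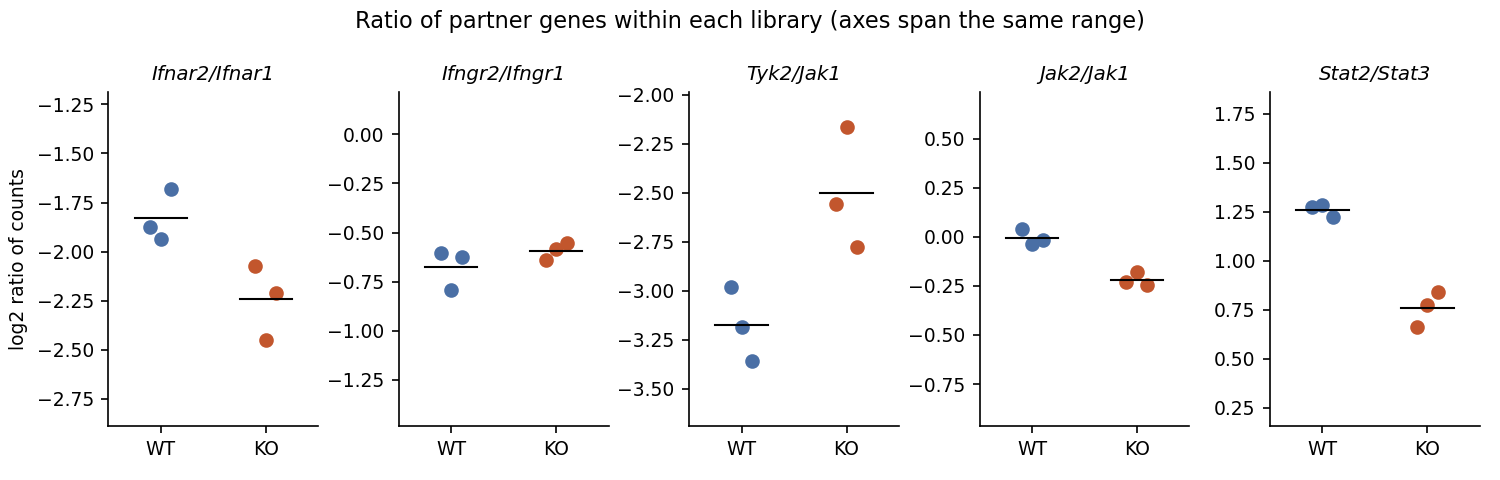
Log2 ratio of raw counts of partner genes in each wild-type (blue) and knock-out (orange) library, with group means as lines; every vertical axis spans the same range. The groups separate for 4 pairs and overlap for Ifngr2 over Ifngr1. The levels of single genes separate for 68.7% of all genes tested.

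The other genes of the relay were taken from lists written by role. Of 7 tested out of 9 further JAK, STAT, IRF and receptor genes, 2 rose and 2 fell, with a median log2 fold change of 0.02, which was -0.06 with chromosome medians removed and 0.18 under upper-quartile scaling. As for the 9 genes, these list counts are to be read beside the 33.1% of all tested genes called higher, the 33.2% called lower and the median of 0.02 over all genes. Irf9, whose product acts with STAT2 in ISGF3, was at 98.3, 102 and 104 CPM in wild-type and at 56.7, 59.9 and 70.8 CPM in knock-out libraries (log2 fold change -0.70, SE 0.0664, edgeR adjusted p = 8.90e-14). As for Stat2, each knock-out library lay below each wild-type library. Stat6, the factor of interleukin 4 signals on chromosome 10, rose by 0.26 on the log2 scale, and with the chromosome median removed its value was -0.093. Stat4 and Ifnlr1 were not analysed here.

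Of 18 genes listed as inhibitors of the relay or of related signals, 17 were tested. Of these, 10 fell and 4 rose, with a median of -0.27, beside 33.2% lower and 33.1% higher over all genes. Under upper-quartile scaling 8 fell and 5 rose, with a median of -0.11. Usp18, which blocks type I signalling at IFNAR2 and is itself induced by interferon, fell from 282 ± 19.1 to 107 ± 4.74 CPM (log2 fold change -1.40). The phosphatase gene Ptpn2, whose product acts on JAK1, fell by 1.04 on the log2 scale; it lies on chromosome 18, and with that chromosome's median removed its value was -0.72. Another phosphatase gene, Ptpn6, went the other way, from 5.28 ± 1.48 to 25.9 ± 1.89 CPM (2.28). Of the 7 tested Socs genes, Socs2 (-0.67), Socs4 (-0.23), Socs5 (-0.27), Socs6 (-0.91) and Socs7 (-0.68) were called lower. Socs6 also lies on chromosome 18, so its value is to be read beside the shift given for Ptpn2. The call of Socs4 was lost under upper-quartile scaling (-0.073) and by library size (-0.11). Socs1 and Socs3 were not called, with log2 fold changes of 0.46 (SE 0.315, adjusted p = 0.198) and 0.33 (SE 0.157, adjusted p = 0.0623).

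Upstream, only 1 of 15 interferon genes was analysed here: Ifnb1 had 2 to 4 counts per wild-type library and 2 to 9 per knock-out library, below the filter. Tested with no filter, Ifnb1 had a log2 fold change of 0.51 and was not called. Downstream, of 28 genes of the type I response, most of them known ISGF3 targets, 24 fell and 1 rose, with a median of -0.85. Ifi44, Oasl2 and Oas1a had the smallest p of that list, with log2 fold changes of -2.33, -1.23 and -1.44. Of 18 tested interferon gamma response genes out of 23, 11 fell and 2 rose, with a median of -0.87; Irgm1, Irgm2 and Cxcl10 had -1.03, -1.08 and -1.39. These 2 lists hold genes whose fall in these libraries was known when the lists were written, so they are not independent evidence of direction.

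Of 19 tested genes linked to STAT3 out of 22, 9 fell and 6 rose, beside 33.2% and 33.1% of all genes, with a median of -0.46. The median was -0.23 under the stricter filter (14 genes tested), -0.30 with no filter and -0.30 under upper-quartile scaling, and DESeq2 called 10 lower and 4 higher. The smallest p were those of Vegfa, an angiogenic factor (-0.84), Myc (-0.86) and Mcl1, a survival factor (-0.77). Of 12 tested genes for other JAK-coupled receptors out of 31, 6 rose and 1 fell, beside 33.1% and 33.2% of all genes, with a median of 0.61. The median was 0.093 over the 5 genes that passed the stricter filter, of which 2 were called higher, and 0.32 over 17 genes with no filter. The growth hormone receptor gene Ghr rose from 65.0 to 125 CPM (log2 fold change 0.94), Il4ra from 5.99 to 14.9 CPM (1.32) and Il27ra from 1.23 to 5.11 CPM (1.97). Il27ra had only 27, 10 and 5 counts in wild-type and 54, 54 and 56 in knock-out libraries. It passed the filter on low counts through the knock-out libraries and did not pass the stricter filter.

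**Figure D5:**
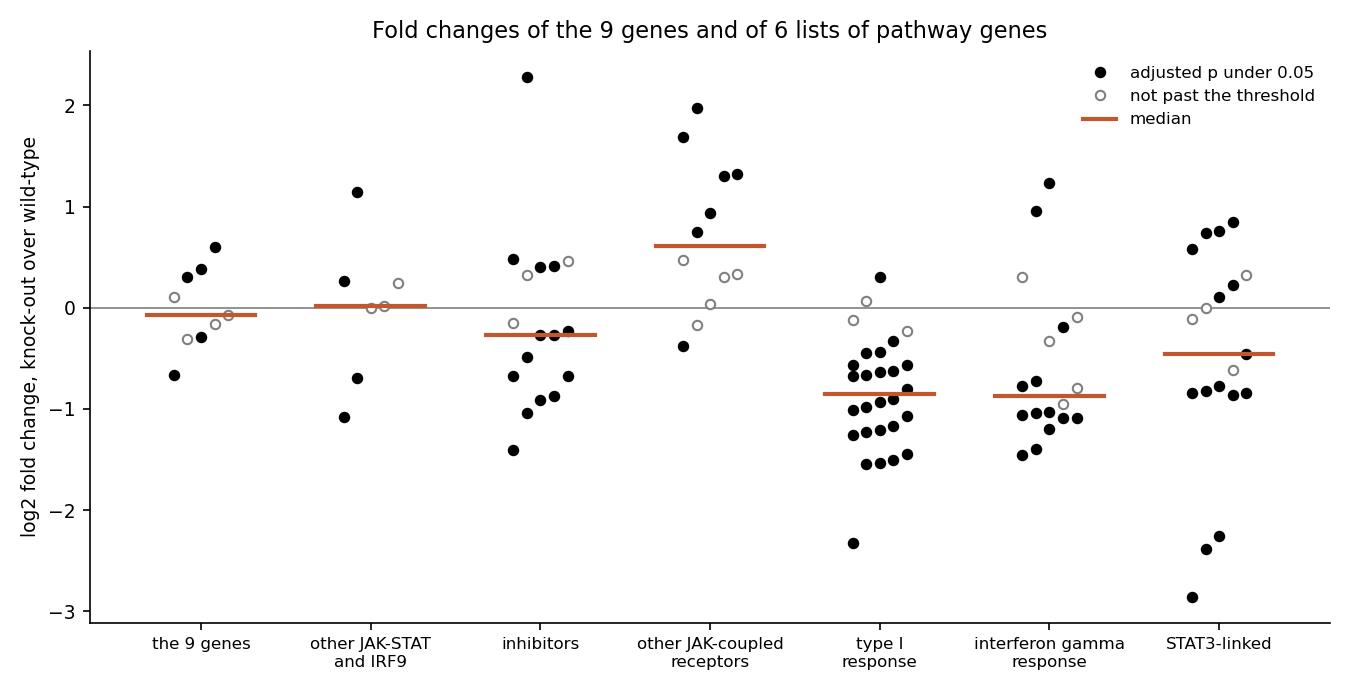
Log2 fold changes (knock-out over wild-type) of the 9 genes and of the tested genes of 6 lists, filled where the adjusted p was under 0.05, with the median of each as a line. The medians are -0.07 for the 9 genes, -0.85 for the type I response and -0.87 for the interferon gamma response.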

How the data were processed

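The authors deposited 1 table of raw counts, whole numbers of reads for each Ensembl gene. Per the labels' protocols a directional kit was used, and per the submitters' processing notes fastp, STAR and HTSeq were among the tools and mm10 was the build. Neither versions nor the strand setting were given in the sources used here. The 6 CUT&Tag and single-cell samples were not analysed here. Symbols were found for 17650 of 17718 identifiers, and RefSeq positions (GRCm38.p6) by symbol for 11923 of the 13013 tested genes. Neighbours and cluster genes were sought among tested genes with such a position, leaving out Gm and Rik names and Ensembl identifiers without a symbol.

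The fit was edgeR 4.0.16 (limma 3.58.1, R 4.3.3): filterByExpr (minimum count 10, minimum total 15), TMM, robust quasi-likelihood F test, Benjamini-Hochberg over all genes, threshold 0.05. Standard errors were derived from F. CPM values are TMM-scaled. Alternatives were RLE, upper-quartile and library-size scaling, no filter, a stricter filter (10 CPM in 3 libraries), DESeq2 1.42.0, limma voom, each library left out, and chromosome or local (5 Mb) medians removed. On simulated counts for 12799 genes, 21 of 50 changes of 1.25-fold, 34 of 50 of 1.5-fold, 45 of 50 of 2-fold and 50 of 50 of 4-fold were recovered. There, 8 of 12601 unchanged genes were called. Only those few genes were changed, whereas 66.2% of all tested genes were called in the data. The adjusted p depends on that share, so these rates do not describe the present comparison.

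The 9 genes and the lists were chosen with earlier results of these data known. Named besides the 9 are Kmt2c, the 3 genes with the smallest p of each pathway list (1 of them is not reported here), the called neighbours (the 2 nearest on each side) and the whole receptor cluster; the Socs genes, Ifnb1 and the markers were chosen after their values were seen. Separate cultures are not stated for the libraries; p-values then reflect only how far these libraries differ, possibly for technical reasons.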

Additional observations from a re-analysis of the deposited data

How the results depend on the processing

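Over 15 alternatives for each of the 9 genes, 124 of 135 values kept their direction and their side of the threshold; for Stat2, Tyk2 and Ifngr2 all 15 did. The exceptions were as follows. With upper-quartile scaling Ifnar1 was 0.26 (called) and Jak1 0.089; with scaling by library size they were 0.22 (called) and 0.053. With chromosome medians removed Ifngr1 was -0.055 and Stat3 -0.22 (called), and with local medians removed Ifngr1 was -0.22 (called lower), Jak2 0.056 and Stat3 -0.24 (called). Leaving out 1 library in turn, Ifnar2 ranged from -0.42 to -0.26 and Stat3 from -0.21 to -0.12, each called in 1 of these fits. Of the other named genes, Son was 0.0070 and Itsn1 0.037 with upper-quartile scaling, Itsn1 was 0.0015 by library size and Stat6 was -0.093 with chromosome medians removed, while Il10rb and Donson, both near 0, ranged from -0.053 to 0.11 and from -0.047 to 0.086 when single libraries were left out. The higher share of all calls was 49.9%, 63.7% with upper-quartile scaling and 60.5% by library size. No paired analysis was possible because the knock-out columns carry no number that the labels tie to a replicate. Depth limits Ifnar2 and Tyk2 most, at 98 to 151 and 107 to 289 counts per library.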

Other observations

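For each of the 9 genes, the named gene was sought whose log2 CPM over the 6 libraries, centred on its own mean, lay closest to it. Among 11094 genes compared, the closest to Stat2 was Ntmt1 (root mean square distance 0.0200 on the log2 scale), to Jak2 Ergic2 (0.0142), to Tyk2 Pot1b (0.0684), to Ifngr1 Gaa (0.0191) and to Ifngr2 Fkbp4 (0.0180). For Ifnar1 it was Pcca (0.0280), for Ifnar2 Klf13 (0.0387), for Jak1 Ipo11 (0.0115) and for Stat3 Rps6kb1 (0.0192), which also lies on chromosome 11. None of these is another of the 9 genes. With 6 libraries in 2 groups, closeness mainly reflects a like fold change.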
